A study of Mus musculus with 3 samples.

Results

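Cycling FAPs were the cells of injured mouse tibialis anterior muscle that carried Pdgfra transcripts together with transcripts of genes of DNA replication and mitosis. They were found in 3 single-cell RNA-sequencing libraries of muscle taken 4 days after an intramuscular injection of barium chloride (BaCl2), which kills muscle fibres and starts their regeneration. The mice were C57/BL6J, and the 3 groups were young PBS (3 to 4 months old, given PBS), old PBS (24 to 26 months old, given PBS) and old rMETRNL (24 to 26 months old, given recombinant meteorin-like protein into the muscle at the injury and again 24 and 48 hours later, in an amount that the sources used here give both as 0.1 µg and as 0.1 ng). Each group had 1 library, made from the pooled suspension of 3 samples. A cell was counted when it had at least 500 genes and under 10% mitochondrial UMIs (unique molecular identifiers, each standing for 1 captured transcript). It passed the Pdgfra gate with at least 2 UMIs of Pdgfra and 0 of Ptprc, Pecam1, Cdh15 and Tnmd, which mark leukocytes, endothelium, muscle stem cells and tenocytes, and it was called cycling with at least 5 UMIs over Mki67, Top2a, Cdk1, Birc5 and Cenpf. The cells were thus chosen by the raw UMI counts of these 10 genes, whose levels are given as a description. The rule found 384 cycling cells among 2896 cells of the Pdgfra gate and 35247 counted cells, namely 141 of the 1026 gated cells from young PBS, 80 of 836 from old PBS and 163 of 1034 from old rMETRNL. No cell barcode of a cycling cell was shared between libraries, although 33 to 42 barcodes of counted cells were.

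Fibro/adipogenic progenitors (FAPs) are the mesenchymal stromal cells of skeletal muscle. They lie quiescent between the fibres of resting muscle, enter the cell cycle within days of an injury, lay down provisional matrix and secrete factors that act on muscle stem cells and myeloid cells, and later return in number to the resting level or, where repair fails, persist as fibroblasts and adipocytes. A cell that enters the cycle passes from G1, governed by D-type cyclins, their kinases and E2F factors, through DNA replication in S phase to G2 and mitosis, whose genes are transcribed late in the cycle. Of the genes in the rule, Mki67 encodes the Ki-67 protein that coats mitotic chromosomes, Top2a the topoisomerase that separates replicated DNA, Cdk1 the mitotic kinase, Birc5 survivin of the chromosomal passenger complex, and Cenpf a protein of the kinetochore.

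Genes of G2 and mitosis commonly carry CCAAT boxes, bound by NF-Y, and the CHR element TTTGAA, bound by the DREAM and MuvB complexes, while S phase genes commonly carry E2F sites. Over the 250 bases before the start, CCAAT was present in 4 of the 5 cycling genes of the rule and TTTGAA or TTCGAA in 3, Birc5 holding neither and Cenpf only CCAAT. The 180 bases before the start of the 4 genes with a match are shown to let these letters be seen, from RefSeq on GRCm38, 5′ to 3′ on the gene's strand. Capitals mark CCAAT and TTTGAA or TTCGAA on either strand (read as ATTGG and TTCAAA on the other).
Mki67 (chr7:135716380-135716559, minus strand): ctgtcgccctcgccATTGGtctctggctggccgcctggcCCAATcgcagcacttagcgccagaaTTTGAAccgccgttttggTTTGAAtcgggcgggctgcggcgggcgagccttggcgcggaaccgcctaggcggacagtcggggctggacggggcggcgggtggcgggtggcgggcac
Top2a (chr11:99024190-99024369, minus strand): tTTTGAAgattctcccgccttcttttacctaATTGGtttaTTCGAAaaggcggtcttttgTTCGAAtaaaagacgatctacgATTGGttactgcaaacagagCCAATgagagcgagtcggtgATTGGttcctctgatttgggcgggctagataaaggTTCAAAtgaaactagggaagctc
Cdk1 (chr10:69352913-69353092, minus strand): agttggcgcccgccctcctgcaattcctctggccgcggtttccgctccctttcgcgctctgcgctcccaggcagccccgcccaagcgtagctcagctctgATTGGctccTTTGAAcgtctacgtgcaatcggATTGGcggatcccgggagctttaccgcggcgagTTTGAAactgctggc
Cenpf (chr1:189688087-189688266, minus strand): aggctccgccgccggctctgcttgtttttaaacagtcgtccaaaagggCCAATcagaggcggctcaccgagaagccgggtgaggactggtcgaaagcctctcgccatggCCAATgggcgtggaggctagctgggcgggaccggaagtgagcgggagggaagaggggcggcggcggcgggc
Beside them, the same stretch of the S phase gene Mcm5, a subunit of the replicative helicase, is printed with capitals on matches to E2F-type motifs on either strand, namely the motif TTCCCGC, the motif TTTCGCG and the motif TTGGCGC, and the last 2 overlap here. Its 2 CCAAT matches stand in lower case.
Mcm5 (chr8:75109329-75109508, plus strand): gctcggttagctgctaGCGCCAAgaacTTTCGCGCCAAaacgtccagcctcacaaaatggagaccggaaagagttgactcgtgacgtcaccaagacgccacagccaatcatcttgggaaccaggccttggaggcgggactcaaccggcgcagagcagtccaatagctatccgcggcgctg
CCAAT on either strand was present in 41 of the 54 genes of the G2 and M phase list that could be matched (75.9%), against 37.5% of 27025 genes. TTTGAA or TTCGAA was present in 24 of the 54 (44.4%) against 19.6%, and both were present in 38.9% against 7.001%. An E2F-type motif was present in 16 of 38 matched genes of the S phase list (42.1%) against 7.15% of all genes. The lists were not separate in these letters, since CCAAT was present in 23 of the 38 S phase genes (60.5%), and an E2F-type motif in 7 of the 54 G2 and M phase genes (13.0%) and in 6 of 17 glycolysis genes (35.3%). These are matches of letters and describe the windows only.

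The 5 cycling genes together gave a median of 45 UMIs per cycling cell for young PBS, 41 for old PBS and 44 for old rMETRNL, with a lowest value of 5 and highest values of 316, 235 and 228. Most other cells of the gate had none, since 574, 560 and 582 of them carried 0 UMIs of these genes. Just outside the threshold, with 3 or 4 UMIs, were 31, 16 and 31 cells. Just inside it, with 5 or 6 UMIs, were 11, 3 and 20, and with 7 to 9 UMIs 9, 5 and 16, so old rMETRNL had the most members close to the threshold. Mki67 stood at 327, 366 and 317 CPM (counts per 1000000 UMIs of the summed cells) in the cycling cells of young PBS, old PBS and old rMETRNL, against 3.52, 3.53 and 4.64 in the other cells of the gate. Top2a stood at 445, 383 and 445 CPM, Cdk1 at 227, 163 and 191, Birc5 at 316, 305 and 265 and Cenpf at 251, 267 and 246, in the same order. Each of these transcripts was spread over the cycling cells, and Mki67 was detected in 97.2%, 92.5% and 93.3% of them.

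**Figure D1:**
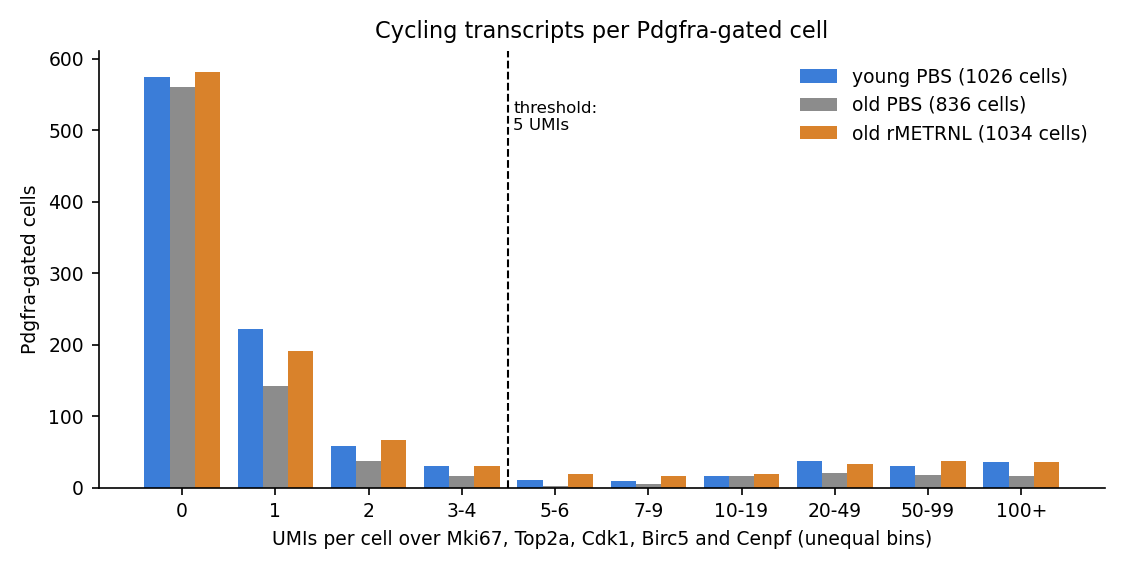
Number of cells of the Pdgfra gate (vertical axis) by the summed UMIs of Mki67, Top2a, Cdk1, Birc5 and Cenpf per cell (horizontal axis, in unequal bins) for the 3 libraries, with the threshold of 5 UMIs marked. Cells with 0 UMIs number 560 to 582 in every library, cells with 5 or 6 UMIs number 11, 3 and 20, and the cycling cells extend to 316, 235 and 228 UMIs.

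Cycling cells were larger in RNA content than the other cells of the gate. Their median UMI count was 41986 for young PBS, 36798 for old PBS and 39008 for old rMETRNL against 25197, 21530.5 and 23599, a ratio of 1.67, 1.71 and 1.65. Median genes per cell were 6118, 5947.5 and 6128 against 4810, 4350.5 and 4597. The mitochondrial share was alike in both, with medians of 2.69%, 2.64% and 2.40% in the cycling cells and 2.72%, 2.58% and 2.50% in the others. Because the threshold counts raw UMIs, a deeper cell passes it more easily, so shares are given below also after each cell was thinned to 10000 UMIs. The Scrublet doublet caller marked 164, 142 and 208 counted cells (1.44%, 1.28% and 1.63%) and 0 of the cycling cells by its own threshold. Removing the highest scores at 0.8% per 1000 barcodes instead took away 17, 18 and 14 of the cycling cells.

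The label was checked against marker genes. All 12 FAP markers were detected in the cycling cells of each library, among them Dcn, Lum, Col1a1, Col3a1, Ly6a and Cd34, at a summed level of 24306, 28433 and 22236 CPM in the cycling cells and 36302, 41790.2 and 38068 CPM in the others. Pdgfra itself, on which the gate rests, was at 174.9, 244.2 and 240.5 CPM against 239.5, 314.0 and 313.3 CPM. Markers of other cell types were low. The 15 macrophage and monocyte markers, all detected, summed to 267, 264 and 310.4 CPM in the cycling cells and 352, 415 and 376 CPM in the others, the 10 endothelial markers to 16.6, 39.5 and 14.96 CPM in the cycling cells and 19.4, 22.5 and 16.99 CPM in the others, and the 10 muscle stem cell and myoblast markers to 73.9, 66.2 and 53.6 CPM in the cycling cells and 49.95, 56.7 and 46.2 CPM in the others. T cell receptor genes Cd3e, Cd3d and Cd3g were at 0 in the cycling cells of every library. Muscle fibre genes differed most between libraries, at 23.4, 189 and 57.4 CPM in the cycling cells and 23.95, 305 and 46.9 CPM in the others. Their transcripts were thus most abundant in the old PBS library, and the source of these transcripts was not tested. Of the 9 tenocyte markers 6, 5 and 6 were detected in the cycling cells, and Kera, Chodl and Col22a1 were at 0 in every library. The 9 markers summed to 251, 439 and 199.8 CPM in the cycling cells and 572, 599 and 371 CPM in the others. Pericyte and smooth muscle markers summed to 302, 161 and 172 CPM in the cycling cells and 220.3, 171 and 191 CPM in the others. Schwann cell markers summed to 11.5, 10.2 and 12.7 CPM in the cycling cells and 16.2, 15.4 and 22.7 CPM in the others, dendritic cell markers to 4.41, 5.92 and 4.27 CPM in the cycling cells and 5.61, 10.8 and 4.83 CPM in the others, and T and NK cell markers to at most 1.69 CPM in the cycling cells.

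The share of cycling cells in the Pdgfra gate asks how much of the FAP pool was dividing with age and after rMETRNL. It was 13.7% (95% exact binomial interval 11.7% to 16.0%) for young PBS, 9.57% (7.66% to 11.8%) for old PBS and 15.8% (13.6% to 18.1%) for old rMETRNL. The share of old PBS was 0.696 (0.522 to 0.923) times that of young PBS, and the share of old rMETRNL was 1.65 (1.25 to 2.18) times that of old PBS and 1.15 (0.9099 to 1.45) times that of young PBS, a ratio that turned to 0.895 (0.811 to 0.987) where cells were called by at least 10 UMIs over the whole G2 and M phase list. With 1 library per group no test between groups was possible, both contrasts use the same old PBS library, and each interval here and below covers counting error only and not the spread between mice. After thinning to 10000 UMIs, which left out 35, 103 and 88 shallower cells, the shares were 10.9%, 8.87% and 11.8%. The ratios kept their direction at 0.814 (0.589 to 1.12) and 1.34 (0.975 to 1.84), and both intervals then included 1. Thinning to 5000 UMIs with a threshold of 3 UMIs gave 0.721 (0.518 to 0.997) and 1.48 (1.07 to 2.05), where neither interval included 1. With the gate and the threshold both applied to the cells thinned to 10000 UMIs, the ratios were 0.803 (0.557 to 1.15) and 1.5003 (1.07 to 2.12). The direction was thus the same in these 3 settings, and whether an interval included 1 depended on the setting. At a threshold of 10 UMIs without thinning the ratios were 0.7303 (0.538 to 0.986) with age, 1.43 (1.06 to 1.93) with treatment and 1.04 (0.805 to 1.35) for old rMETRNL over young PBS.

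The order of the libraries was the same before the gates on other lineages were applied. Of all cells with at least 2 Pdgfra UMIs, 293 of 1725 (17.0%) were cycling for young PBS, 159 of 1427 (11.1%) for old PBS and 312 of 1809 (17.2%) for old rMETRNL. The requirement of 0 UMIs of Ptprc, Pecam1, Cdh15 and Tnmd kept 48.1%, 50.3% and 52.2% of these cycling cells and 61.8%, 59.6% and 58.2% of the non-cycling ones, so the stricter gate removed cycling cells more often in every library. Other lineages gated in the same way gave a background for the threshold. Cycling cells made up 4 of 99 Tnmd-gated cells (4.04%) for young PBS, 0 of 72 for old PBS (exact upper limit 4.99%) and 6 of 134 (4.48%) for old rMETRNL, at median UMI counts of 15993, 12261.5 and 12667.5 against 26209.5, 22534 and 24765 in the Pdgfra gate. Ptprc-gated leukocytes stood at 10.6%, 10.8% and 13.0%, and Cdh15-gated muscle stem cells and myoblasts at 53.6%, 43.2% and 50%. Pecam1-gated endothelial cells stood at 16.5%, 5.69% and 12.9%, at median UMI counts of 12171, 5433.5 and 9784, so that their share too was lowest in old PBS. After thinning to 10000 UMIs the Ptprc, Cdh15 and Pecam1 gates stood at 9.96%, 9.65% and 12.1%, at 36.7%, 37.2% and 41.5%, and at 19.05%, 13.5% and 19.7%. In the plot of shares by gate the cycling FAPs thus lay between tenocytes and muscle stem cells in each library.

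**Figure D2:**
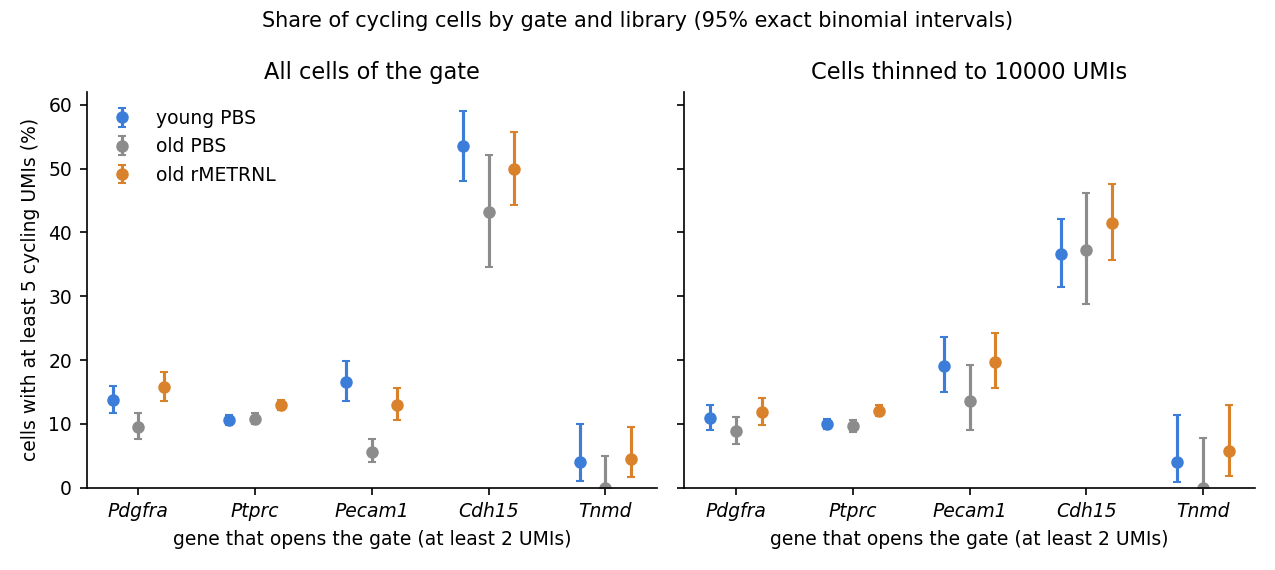
Percent of cells with at least 5 UMIs over the 5 cycling genes (vertical axis) in the 3 libraries (colours) for cells gated on Pdgfra, Ptprc, Pecam1, Cdh15 or Tnmd, with exact 95% binomial intervals that cover counting error only. Pdgfra-gated cells stand at 13.7%, 9.57% and 15.8%, above the Tnmd-gated cells and below the Cdh15-gated ones in every library.

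The cycling cells of the 3 libraries were spread over the cell cycle in a similar way. UMIs of 66 G2 and M phase genes made up 73.5% (73.2% to 73.9%) of the UMIs of S phase and G2 and M phase genes together for young PBS, 75.5% (75.03% to 76.001%) for old PBS and 72.3% (71.9% to 72.6%) for old rMETRNL, genes of the rule left out. Per cell the median was 76.3%, 77.8% and 73.9%, and the quartiles ran from 53.2% to 86.6%, from 60.2% to 86.4% and from 52.0% to 84.8%. The libraries overlapped over nearly their whole range, and the differences of a few points were small beside the spread between cells. Cells with under 50% G2 and M UMIs, in which S phase transcripts prevailed, numbered 29, 16 and 38, those from 50% to 80% numbered 54, 27 and 59, and those at 80% or more numbered 58, 37 and 66. These classes are ranges of a continuous value, since 13, 6 and 15 cells lay within 5 points of the lower limit and 29, 21 and 37 within 5 points of the upper one. All 5 genes of the rule peak late in the cycle, which favours cells in G2 and M.

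**Figure D3:**
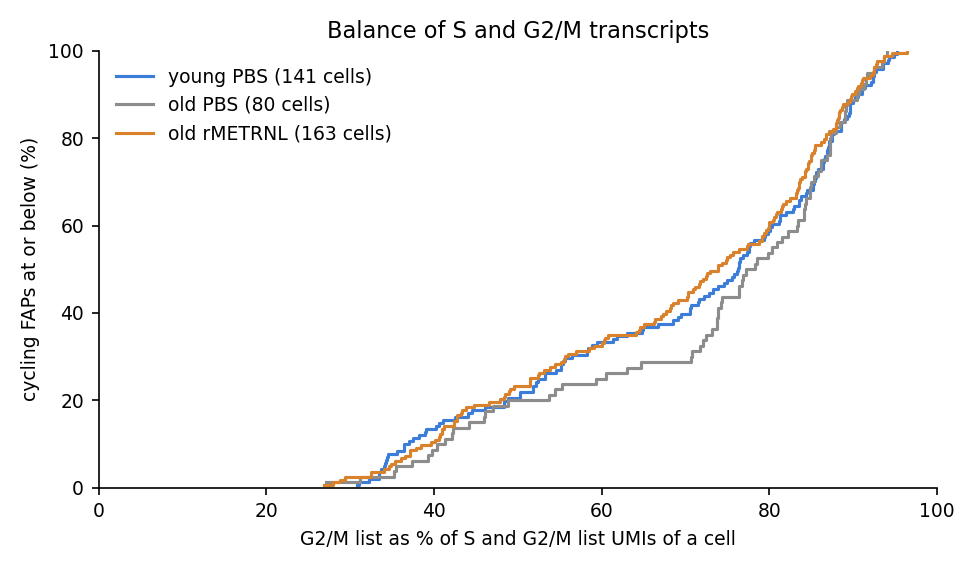
Percent of cycling cells (vertical axis) at or below each share of G2 and M phase UMIs among S, G2 and M phase UMIs (horizontal axis, percent). Each of the 3 libraries is 1 step curve. The medians are 76.3%, 77.8% and 73.9%, and the 3 distributions overlap over nearly their whole range.

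The transcriptome of cycling FAPs was then compared with that of the other cells of the gate, with UMIs summed over each set in each library and the library as a block (edgeR quasi-likelihood test, Benjamini-Hochberg adjustment over 12956 genes). The 3 libraries, each a pool, are the replicates of this comparison, so that p-values measure the spread between these libraries. Of the 12839 genes outside the S phase and G2 and M phase lists, cycling cells had higher levels of 3037 (23.7%) and lower levels of 3036 (23.6%). The even split rests on the scaling by TMM, since scaling by library totals gave 3579 higher and 2609 lower. At least 1.5-fold were 1511 (11.8%) and 1827 (14.2%) of them, and the median log2 fold change over all genes was -0.03. The size of each difference is given beside its p. All levels here are shares of the UMIs of the summed cells. Cycling cells had 1.67, 1.71 and 1.65 times the median UMIs, so a lower level need not mean fewer transcripts per cell. Pdgfra was lower in CPM, yet its median UMIs per cell were 6, 7 and 8 in cycling cells and 5, 5 and 6 in the others. Genes of the cell cycle follow from the choice of the cells and are described without a test. All 51 S phase genes and all 66 G2 and M phase genes were higher in cycling cells, with a median log2 fold change of 2.65 and 5.37. Outside these lists the highest folds among genes with at least 200 UMIs were of Hist1h1b (269-fold), Depdc1a (156-fold), Kif14 (154-fold), Hist1h2ap (144-fold), Pimreg (141-fold), Esco2 (111-fold), Cep55 (104-fold), Kif15 (101-fold), Mxd3 (94.6-fold), Hist1h1a (93.4-fold), Neil3 (81.001-fold) and Iqgap3 (78.2-fold). They belong to the same programme, with linker and core histones, mitotic kinesins, a cohesin acetyltransferase in Esco2 and an abscission protein in Cep55. The other cells held few UMIs of some of them, and without 1 library the log2 fold moved from 7.26 to 8.14 for Kif14 (young PBS left out), from 7.14 to 8.27 for Pimreg and from 6.795 to 7.84 for Esco2 (old rMETRNL left out), so the order is not firm. Hist1h1b had 2275, 878 and 1833 UMIs in 72, 32 and 73 of the cycling cells and 28, 13 and 27 UMIs in all other cells of the gate. All 32 histone and chromatin genes tested were higher, with a median log2 fold change of 1.79.

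Inhibitors of the cell cycle split into a lower and a higher group. Of 14 tested, 8 fell and 4 rose, with a median log2 fold change of -0.36. Cdkn1c, a Cip/Kip inhibitor that is a mark of quiescence in many progenitors, was at 34.4 versus 119 CPM for young PBS, 31.9 versus 134 for old PBS and 15.4 versus 111 for old rMETRNL, the level of the summed cycling cells lying below that of the other cells in every library (log2 fold change -2.27 ± 0.16 (SE), adjusted p = 4.0e-06 in the edgeR test, Benjamini-Hochberg adjusted). Single cells overlapped, since 1 cycling cell of young PBS held 45 Cdkn1c UMIs and the highest other cell 43. The growth arrest genes Gas1 (-0.92, adjusted p = 6.2e-06) and Btg2 (-0.81, adjusted p = 1.7e-05) fell as well, and Cdkn1b (-0.41, adjusted p = 0.0018) and Cdkn1a (-0.36, adjusted p = 0.0049), which encode the other Cip/Kip inhibitors, fell by less. The 4 that rose include targets of E2F, whose levels follow from the choice of the cells, so their values are given as a description. They were Cdkn2c at 2.23 on the log2 scale, Cdkn2d at 1.95, the pocket protein gene Rbl1 at 2.25, and Cdkn2a, a marker of senescence, at low levels of 5.25 versus 1.52 CPM for young PBS, 9.87 versus 2.92 for old PBS and 5.19 versus 2.25 for old rMETRNL (1.499). The drivers of G1 were mostly higher, with 12 of 17 risen and 2 fallen and a median log2 fold change of 0.74. Ccnd1, encoding cyclin D1, was at 70.5 versus 39.4 CPM for young PBS, 59.9 versus 41.8 for old PBS and 113 versus 49.4 for old rMETRNL (0.82 on the log2 scale), its kinase gene Cdk4 differed by 0.74, the repressor E2f7 by 3.07 and the ubiquitin ligase gene Skp2 by 2.004. Myc, an early driver of growth, was lower at 160.1 versus 219 CPM for young PBS, 222 versus 322 for old PBS and 139 versus 247 for old rMETRNL (-0.67 ± 0.08 (SE), adjusted p = 1.2e-04, edgeR, Benjamini-Hochberg adjusted).

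Genes of biosynthesis were higher in cycling FAPs. Of 25 nucleotide synthesis genes 22 rose and 0 fell (median log2 fold change 0.72), led by the mitochondrial folate enzymes Mthfd2 (1.81, adjusted p = 2.8e-07) and Shmt2 (1.63, adjusted p = 2.5e-06). Mthfd2 was at 48.1 versus 13.95 CPM for young PBS, 48.7 versus 12.4 for old PBS and 56.5 versus 15.2 for old rMETRNL. Of 25 ribosome biogenesis genes 17 rose and 1 fell (median 0.51), with Pa2g4 at 140.1 versus 61.4 CPM for young PBS, 121 versus 60.3 for old PBS and 164 versus 64.5 for old rMETRNL (1.12 on the log2 scale), nucleolin, Ncl, at 0.62, and the snoRNP gene Nop58, the only one that fell, at -0.42. Tubulins, actins and their regulators rose in 17 of 19 cases and fell in 0 (median 0.83). Stmn1, which destabilizes microtubules, was at 406 versus 16.998 CPM for young PBS, 476 versus 13.1 for old PBS and 345 versus 20.9 for old rMETRNL, and the tubulin gene Tuba1b at 732 versus 125 CPM for young PBS, 620.1 versus 103 for old PBS and 699.7 versus 127 for old rMETRNL. Both stood apart from the other cells in every library, by 4.503 and 2.46 on the log2 scale. Respiratory chain subunits rose in 20 of 23 cases and fell in 0, by a smaller median of 0.46. Cytochrome c, Cycs, was at 144 versus 61.1 CPM for young PBS, 123 versus 61.5 for old PBS and 146 versus 61.2 for old rMETRNL (1.100 ± 0.08 (SE), adjusted p = 2.9e-06, edgeR, Benjamini-Hochberg adjusted).

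Glycolysis was higher as well, but not equally in the 3 libraries. Of 17 genes 10 rose and 2 fell, and the median difference on the log2 scale was 0.82 for young PBS, 0.31 for old PBS and 0.76 for old rMETRNL. Slc16a3, which exports lactate, was at 57.4 versus 16.95 CPM for young PBS, 12.5 versus 5.29 for old PBS and 66.8 versus 18.99 for old rMETRNL (1.64 ± 0.11 (SE), adjusted p = 2.8e-06, edgeR, Benjamini-Hochberg adjusted). Pgk1, phosphoglycerate kinase, was at 413 versus 178 CPM for young PBS, 219.9 versus 109.7 for old PBS and 476 versus 198 for old rMETRNL, and Ldha, lactate dehydrogenase, at 686 versus 386 CPM for young PBS, 515 versus 324 for old PBS and 919 versus 423 for old rMETRNL. The cycling cells were above the other cells of their own library for these genes, while the cycling cells of old PBS were below those of the other libraries. Hexokinase 2, the first enzyme of the pathway, went the other way, with Hk2 at 234 versus 346 CPM for young PBS, 291 versus 512 for old PBS and 267 versus 447 for old rMETRNL (-0.78 ± 0.07 (SE), adjusted p = 1.5e-05, edgeR, Benjamini-Hochberg adjusted). The glucose transporter gene Slc2a1 was at 56.9 versus 42.6 CPM for young PBS, 22.7 versus 30.9 for old PBS and 56.8 versus 40.9 for old rMETRNL and did not pass the test (0.18 ± 0.15 (SE), adjusted p = 0.33, edgeR, Benjamini-Hochberg adjusted), except with the old PBS library left out, where it stood at 0.38 and passed.

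**Figure D4:**
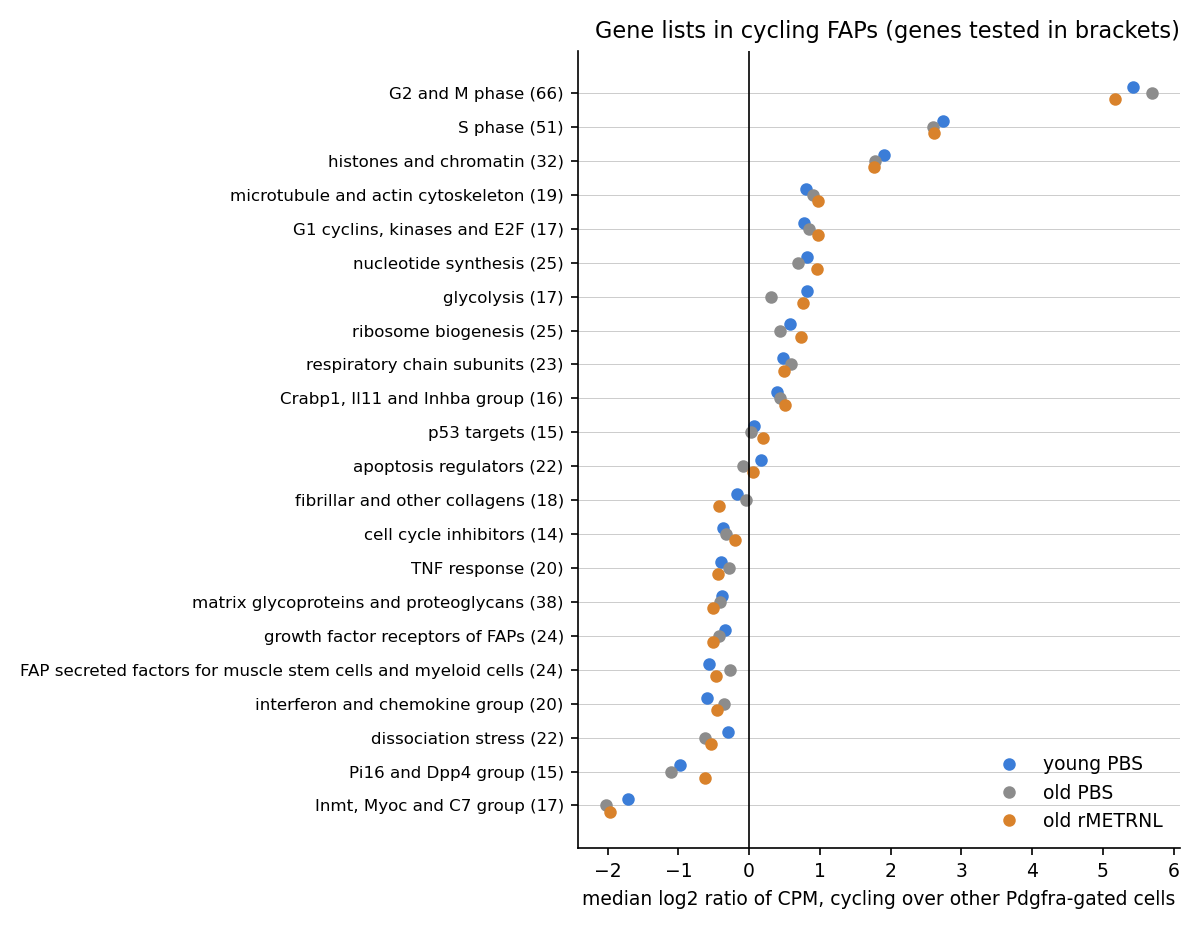
Median log2 difference between cycling and other Pdgfra-gated cells (horizontal axis) over the genes of each fixed list (rows), with 1 point per library and the number of genes tested in brackets. Histone, nucleotide, cytoskeleton and G1 genes lie above 0 and the Inmt, Myoc and C7 group, the Pi16 and Dpp4 group and matrix genes below 0 in every library.

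Genes of the matrix and of quiescent or specialised FAPs were lower. Of 38 matrix glycoprotein and proteoglycan genes 27 fell and 3 rose (median log2 fold change -0.48), and of 18 collagens 11 fell and 0 rose (median -0.28). Decorin, Dcn, was at 1724 versus 4287 CPM for young PBS, 2232 versus 6805 for old PBS and 1911 versus 5634 for old rMETRNL (-1.56 ± 0.06 (SE), adjusted p = 5.8e-08, edgeR, Benjamini-Hochberg adjusted). The proteoglycans Ogn and Lum fell by 1.898 and 1.39 on the log2 scale, elastin, Eln, by 1.95 and periostin, Postn, by 0.87. Among collagens, Col3a1 was at 7377 versus 12279.9 CPM for young PBS, 9589 versus 13966 for old PBS and 7569.6 versus 13302 for old rMETRNL (-0.77 on the log2 scale), and the fibril-associated Col14a1 showed the lowest value of the list (-1.36). Col1a1 differed little at 10116 versus 11642 CPM for young PBS, 9682 versus 9677 for old PBS and 7059 versus 9452 for old rMETRNL, with overlap between the sets over the libraries and an old PBS value nearly equal in both (-0.28 ± 0.06 (SE), adjusted p = 0.0058, edgeR, Benjamini-Hochberg adjusted). Tenascin C, Tnc, a matrix protein of wound beds, was among the few that rose, at 789 versus 336 CPM for young PBS, 592 versus 282 for old PBS and 402 versus 222 for old rMETRNL (0.99 ± 0.08 (SE), adjusted p = 6.6e-06, edgeR, Benjamini-Hochberg adjusted), together with the collagen cross-linking enzyme gene Loxl3 (0.40). Tenocyte markers, which include matrix genes, were lower in the cycling cells, as given above, and their part in these differences was not tested.

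Among the lists of FAP states, the Inmt, Myoc and C7 group had the lowest median. The group marks FAPs close to the resting state around vessels and fibres. All 17 genes tested fell, with a median log2 fold change of -1.998. Inmt, an indole methyltransferase gene, had 1, 0 and 0 UMIs in the cycling cells against 89, 204 and 181 in the others, and the complement gene C7 had 0, 3 and 1 against 50, 162 and 146. These counts came from 23, 77 and 66 other cells for Inmt and 22, 68 and 60 for C7. Myoc, encoding myocilin, was at 15.9 versus 161 CPM for young PBS, 87.2 versus 482 for old PBS and 22.3 versus 338 for old rMETRNL, and gelsolin, Gsn, at 440.03 versus 1671 CPM for young PBS, 848 versus 3455 for old PBS and 504 versus 2301 for old rMETRNL. In no library did the cycling cells reach the level of the others for these genes. Complement C3 was at 111 versus 364 CPM for young PBS, 195 versus 625 for old PBS and 130.5 versus 516 for old rMETRNL (-1.86 ± 0.08 (SE), adjusted p = 6.4e-08, edgeR, Benjamini-Hochberg adjusted). The Pi16 and Dpp4 group, which marks adventitial progenitors, fell in 12 of 15 genes and rose in 0 (median -0.92), with Pi16 at 10.2 versus 162 CPM for young PBS, 25.3 versus 212 for old PBS and 55.4 versus 191 for old rMETRNL (-2.79 ± 0.29 (SE), adjusted p = 4.8e-05, edgeR, Benjamini-Hochberg adjusted, and -3.59 without the old rMETRNL library) and Dpp4 at -1.098. The cycling cells of old rMETRNL carried more Pi16 than those of the other libraries but still less than any set of other cells.

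Among genes with at least 200 UMIs and the same sign in every library, outside the cell cycle lists, ribosomal and mitochondrial genes and unnamed gene models, the 12 lowest folds were of Inmt, Hbb-bt, Galnt15, C7, Saa3, Hba-a1, Col6a5, Stmn2, Hbb-bs, Wfdc1, Saa1 and Sult1a1. Without young PBS the log2 fold moved from -6.74 to -9.88 for Inmt and from -4.00 to -2.63 for Col6a5. Without old rMETRNL it was -5.75 for Col6a5. Those of Galnt15, C7, Saa3, Stmn2, Wfdc1 and Saa1 also moved by over 1.5-fold without 1 library, so this order is not firm. Galnt15, a glycosyltransferase gene, had 0, 1 and 3 UMIs in the cycling cells and 64, 216 and 150 in the others, and Wfdc1 had 2, 2 and 0 against 97, 75 and 64. The acute phase gene Saa3 had 1, 5 and 6 UMIs against 295, 156 and 430, which came from 24, 14 and 26 of the other cells. In 2 libraries the haemoglobin genes rested mostly on single cells. Of the Hbb-bs UMIs of the other cells, 1 cell held 2469 of 2652 in young PBS and 1 cell held 1971 of 2176 in old rMETRNL. In old PBS no such cell was present, and the 186 Hbb-bs UMIs of the other cells came from 158 cells with at most 3 each, against 24 UMIs in the cycling cells. The 5 erythroid markers together were at 7.29, 11.8 and 7.94 CPM in the cycling cells and 191, 19.9 and 181 CPM in the others. The part of those single cells in the differences was not tested, and the call of Hbb-bt was lost when the highest doublet scores were removed.

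A wound-activated set, the Crabp1, Il11 and Inhba group, was higher in cycling FAPs in 11 of 16 genes and lower in 2 (median log2 fold change 0.40). Crabp1, a retinoic acid binding protein gene, was at 37.8 versus 7.43 CPM for young PBS, 24.03 versus 4.87 for old PBS and 50.97 versus 9.37 for old rMETRNL, and smooth muscle actin, Acta2, at 469.5 versus 119 CPM for young PBS, 304 versus 66.8 for old PBS and 236 versus 78.2 for old rMETRNL. Both rose, by 2.31 and 1.84 on the log2 scale. Pericyte and smooth muscle markers were at 302, 161 and 172 CPM in the cycling cells and 220.3, 171 and 191 CPM in the others, and their part was not tested. The cytokine gene Il11 was at 38.1 versus 29.9 CPM for young PBS, 117 versus 31.8 for old PBS and 128 versus 41.6 for old rMETRNL (1.25 ± 0.22 (SE), adjusted p = 0.0012, edgeR, Benjamini-Hochberg adjusted), and activin A, Inhba, at 192 versus 89.2 CPM for young PBS, 329 versus 219.7 for old PBS and 272 versus 169 for old rMETRNL. The deiodinase gene Dio2 of the same group fell (-1.34).

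Receptors through which FAPs receive signals were lower in general as shares of the UMIs. Of 24 growth factor and cytokine receptor genes 17 fell and 0 rose (median log2 fold change -0.50). Lifr, the receptor of leukaemia inhibitory factor, was at 36.8 versus 61.8 CPM for young PBS, 53.3 versus 79.4 for old PBS and 26.4 versus 68.7 for old rMETRNL (-0.97 ± 0.14 (SE), adjusted p = 2.9e-04, edgeR, Benjamini-Hochberg adjusted). Egfr and Tgfbr2 fell by 0.65 and 0.61 on the log2 scale. Pdgfrb, a receptor of the mitogen PDGF, was at 209 versus 164 CPM for young PBS, 192 versus 166 for old PBS and 138 versus 133 for old rMETRNL, a difference of 0.14 ± 0.07 (SE), adjusted p = 0.16 (edgeR, Benjamini-Hochberg adjusted), and it passed the test only without the old rMETRNL library (0.22) or with scaling by library totals (0.21).

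Of the factors by which FAPs act on muscle stem cells and myeloid cells, 15 of 24 fell and 6 rose (median log2 fold change -0.56). Igf1, a growth factor for regenerating fibres, was at 119 versus 433 CPM for young PBS, 143 versus 403 for old PBS and 83.9 versus 334 for old rMETRNL, and Gas6, a ligand for the clearance of dying cells, at 140.5 versus 417 CPM for young PBS, 157 versus 356 for old PBS and 80.4 versus 312 for old rMETRNL. Their levels in cycling cells were below those of the other cells in every library (-1.86 and -1.64 on the log2 scale). Metrnl (ENSMUSG00000039208), which encodes the protein given to the treated mice, was at 59.6 versus 77.1 CPM for young PBS, 78.01 versus 98.7 for old PBS and 90.3 versus 107 for old rMETRNL (-0.38 ± 0.07 (SE), adjusted p = 0.0013, edgeR, Benjamini-Hochberg adjusted). Its relative Metrn rose, at 31.9 versus 13.5 CPM for young PBS, 36.9 versus 12.5 for old PBS and 28.1 versus 11.4 for old rMETRNL (1.28), and the cytokine gene Mif rose, at 812 versus 383 CPM for young PBS, 377 versus 235 for old PBS and 757 versus 377 for old rMETRNL (0.86).

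Inflammatory and stress genes were lower in the cycling cells. The TNF response list fell in 16 of 20 genes and rose in 0 (median log2 fold change -0.44), and the interferon and chemokine group fell in 15 of 20 and rose in 1 (median -0.56). Pentraxin 3, Ptx3, was at 223 versus 658 CPM for young PBS, 446 versus 796 for old PBS and 346 versus 795 for old rMETRNL (-1.27 ± 0.11 (SE), adjusted p = 1.1e-05, edgeR, Benjamini-Hochberg adjusted). Cebpd fell by 1.13 on the log2 scale, the interferon-induced Ifit1 by 1.496, the chemokine gene Ccl7 by 1.18, Il6 by 1.12 and Cxcl10 by 0.63. The monocyte chemoattractant Ccl2 was at 1855 versus 1827 CPM for young PBS, 2299 versus 1952 for old PBS and 2381 versus 2115 for old rMETRNL and did not pass the test (0.07 ± 0.05 (SE), adjusted p = 0.24, edgeR, Benjamini-Hochberg adjusted). The dissociation stress list, which marks the response to tissue digestion, fell in 18 of 22 genes and rose in 0 (median -0.58), with Klf4 at -1.197, Atf3 at -1.18 and Fos at -0.67, and its part in the TNF response differences was not tested. Macrophage markers fell in 10 of 15 cases. Genes of cell death showed no common direction. Of 15 p53 targets 4 rose and 3 fell (median 0.05), and of 22 apoptosis regulators 7 rose and 5 fell (median -0.06). The largest rise there was of Bok, a BCL2 family member, at 51.3 versus 11.9 CPM for young PBS, 54.6 versus 11.7 for old PBS and 60.1 versus 15.4 for old rMETRNL (2.02 ± 0.09 (SE), adjusted p = 1.8e-07, edgeR, Benjamini-Hochberg adjusted).

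The last question was whether cycling FAPs differed between the libraries. CPM of the summed cycling cells were compared gene by gene, with at least 100 UMIs in the pair of libraries, as ratios with exact 95% intervals. Between old PBS and young PBS, 397 of 7687 genes were at least 1.5-fold higher in old PBS (5.16%) and 276 at least 1.5-fold lower (3.59%). Between old rMETRNL and old PBS, 318 of 7867 genes were higher (4.04%) and 331 lower (4.21%), and between old rMETRNL and young PBS 327 of 8542 were higher (3.83%) and 287 lower (3.36%). The first pair of contrasts shares the old PBS library. A gene that was high or low in this library thus moves in opposite directions in both. The cell cycle lists moved by small amounts, S phase genes mostly to one side. With age 4 of 46 S phase genes were at least 1.5-fold lower and 39 ratios were below 1 (median log2 ratio -0.20), and with treatment 2 of 47 were at least 1.5-fold higher and 39 ratios were above 1 (median 0.19). The other cells of the gate had S phase medians of -0.19 and 0.32. Of G2 and M phase genes 0 of 65 were past 1.5-fold with age, with 42 ratios above 1 (median 0.05), and with treatment 1 of 66 was past it in each direction, with 50 ratios below 1 (median -0.15). The other cells had G2 and M phase medians of the opposite sign, -0.14 and 0.14. Over all genes the medians were 0.01 and 0.02.

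Among the fixed lists other than cell type markers, glycolysis had the largest median difference both with age and with treatment. In cycling cells of old PBS 10 of 17 glycolysis genes were at least 1.5-fold lower than in young PBS and 0 higher (median log2 ratio -0.69), and in old rMETRNL 12 of 17 were at least 1.5-fold higher than in old PBS and 0 lower (median 0.80). Between old rMETRNL and young PBS 0 genes were past 1.5-fold in either direction (median 0.15). Slc16a3 (ENSMUSG00000025161) was at 57.4 CPM for young PBS, 12.5 for old PBS and 66.8 for old rMETRNL, from 339, 38 and 438 UMIs. Its ratio was 0.218 (0.151 to 0.305) with age and 5.34 (3.83 to 7.65) with treatment. Pfkl, the liver phosphofructokinase, was at 37.1 CPM for young PBS, 10.9 for old PBS and 39.8 for old rMETRNL, with ratios of 0.293 (0.197 to 0.423) and 3.67 (2.55 to 5.44). For these genes the young PBS and old rMETRNL cells lay close together and the old PBS cells well below. Pgk1 was at 413 CPM for young PBS, 219.9 for old PBS and 476 for old rMETRNL (0.532 (0.488 to 0.5801) and 2.16 (1.99 to 2.35)), Slc2a1 at 56.9 CPM for young PBS, 22.7 for old PBS and 56.8 for old rMETRNL (0.399 (0.303 to 0.518) and 2.4997 (1.93 to 3.28)), and Gapdh at 1408 CPM for young PBS, 996 for old PBS and 1354 for old rMETRNL (0.707 (0.678 to 0.738) and 1.36 (1.304 to 1.42)). Hk2 did not follow, at 234 CPM for young PBS, 291 for old PBS and 267 for old rMETRNL (1.24 (1.14 to 1.35) and 0.917 (0.846 to 0.996)).

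Per cell, the summed glycolysis CPM had medians of 4183, 3257 and 4375 in the cycling cells and 2521, 2355 and 2595 in the others. The upper tail differed more than the middle, since the ninetieth percentiles of the cycling cells were 9052, 5148 and 10367 and the tenth percentiles 2216, 1949 and 2253. Low cells were thus present in every library, and high cells were scarce in old PBS. The same difference was seen in the non-cycling cells of the gate at a smaller size, where 5 of 17 genes were lower with age (median -0.43) and 5 higher with treatment (median 0.38). Whether the difference between cycling and other cells in these ratios exceeds the spread between mice could not be tested. Bnip3, a mitophagy gene that low oxygen induces, was at 60.3 CPM for young PBS, 22.1 for old PBS and 74.3 for old rMETRNL (0.366 (0.277 to 0.476) and 3.37 (2.61 to 4.42)). Muscle fibre transcripts were most abundant in the old PBS library, as given above, and their part in these ratios was not tested.

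**Figure D5:**
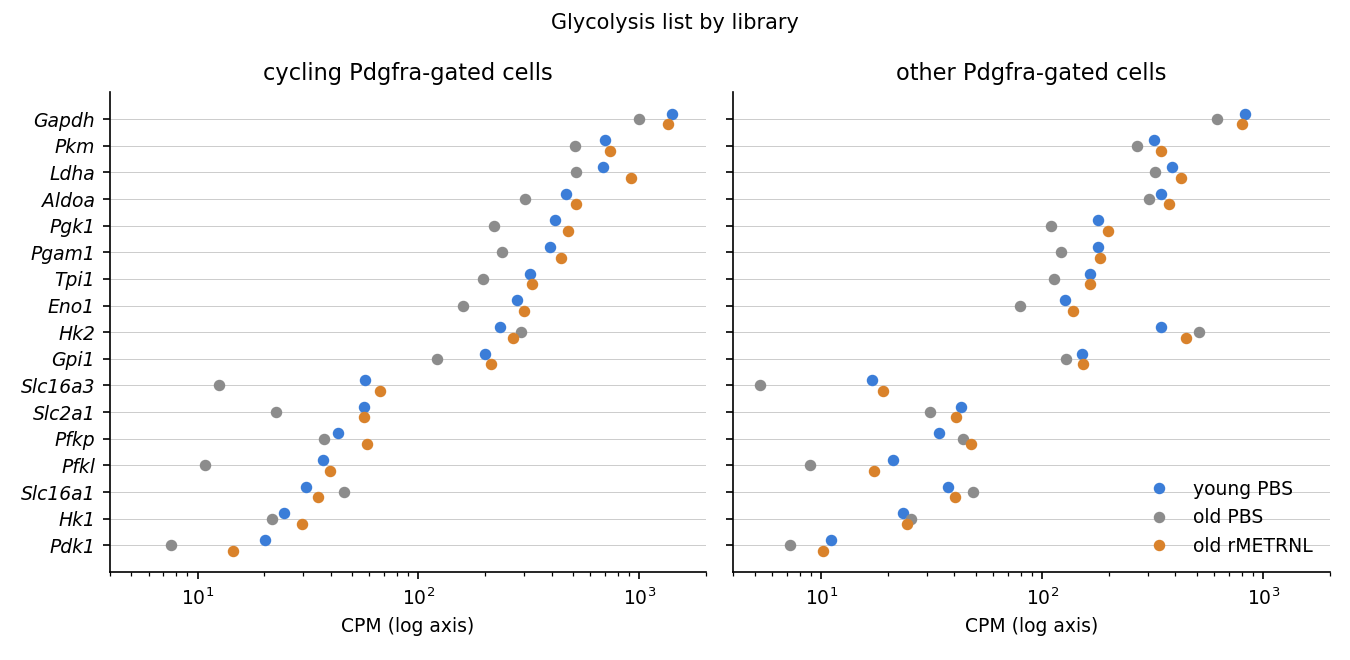
CPM of the glycolysis genes (rows, log axis) in cycling cells and in other Pdgfra-gated cells of the 3 libraries. The spread between mice is not shown. In the cycling cells Slc16a3, Pfkl, Pgk1 and Slc2a1 are lowest in old PBS, whereas Hk2 is highest there.

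Collagens went the other way. With age 3 of 17 collagen genes were at least 1.5-fold higher in cycling cells and 0 lower (median log2 ratio 0.32), and with treatment 7 of 17 were at least 1.5-fold lower and 0 higher (median -0.47), all 17 ratios lying below 1. The other cells of the gate had medians of 0.19 and -0.17. The tenocyte markers with enough UMIs moved the same way in the cycling cells, with 2 of 3 at least 1.5-fold higher with age (median 0.72) and 3 of 3 lower with treatment (median -2.002), and their part in the collagen ratios was not tested. Col6a1, a chain of the microfibrillar collagen VI, was at 1259 CPM for young PBS, 1467 for old PBS and 888 for old rMETRNL, with a treatment ratio of 0.606 (0.582 to 0.6298) against 0.831 in the other cells. Summed per cell, collagens had medians of 36448, 39286 and 29365 CPM in the cycling cells of the 3 libraries. Old rMETRNL was thus the lowest of the 3, although the quartiles overlapped, from 24936 to 54123 in old PBS and from 17583 to 42579.6 in old rMETRNL. Among the other list genes, 7 of 19 TNF response genes were at least 1.5-fold higher with age and 0 lower (median 0.27), and 4 lower with treatment (median -0.37). Vcam1, an adhesion molecule of that list, was at 139 CPM for young PBS, 246 for old PBS and 132 for old rMETRNL.

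The Pi16 and Dpp4 group was highest in the cycling cells of old rMETRNL. With treatment 9 of 14 genes were at least 1.5-fold higher and 0 lower (median log2 ratio 0.77), with all 14 ratios above 1, and against young PBS 12 of 14 were higher (median 1.35). In the other cells these medians were 0.25 and 0.77. With age 4 of 12 were higher (median 0.41). Pi16 was at 10.2 CPM for young PBS, 25.3 for old PBS and 55.4 for old rMETRNL, from 60, 77 and 363 UMIs in 13, 19 and 26 cells. Dpp4 was at 8.47 CPM for young PBS, 8.56 for old PBS and 24.6 for old rMETRNL. The Inmt, Myoc and C7 group was higher in old PBS, with 5 of 13 genes past 1.5-fold with age (median 0.49) and 5 of 13 lower with treatment (median -0.50). In the other cells 10 of the 13 were past 1.5-fold with age (median 0.76) and 2 lower with treatment (median -0.44). Myoc was at 15.9 CPM for young PBS, 87.2 for old PBS and 22.3 for old rMETRNL in the cycling cells, from 16, 23 and 21 cells.

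Single ligands and receptors differed too. Il11 was at 38.1 CPM for young PBS, 117 for old PBS and 128 for old rMETRNL, from 34, 28 and 66 cells. The highest single cell held 27 of 225, 70 of 356 and 139 of 840 of these UMIs. The age ratio of Il11 was 3.07 (2.59 to 3.65) in cycling cells and 1.06 in the others. This interval does not cover the weight of single cells. Il33, an alarmin for regulatory T cells in injured muscle, was at 159 CPM for young PBS, 418 for old PBS and 195 for old rMETRNL, with ratios of 2.63 (2.42 to 2.87) and 0.466 (0.431 to 0.504). In the other cells Il33 moved the same way, at 227, 519 and 332 CPM. Mif was at 812 CPM for young PBS, 377 for old PBS and 757 for old rMETRNL (0.464 (0.435 to 0.495) and 2.01 (1.88 to 2.14)), and at 383, 235 and 377 CPM in the other cells. Metrnl was at 59.6 CPM for young PBS, 78.01 for old PBS and 90.3 for old rMETRNL, with ratios of 1.31 (1.105 to 1.55) with age and 1.16 (0.995 to 1.35) with treatment, and the latter interval included 1. Cdkn1c was at 34.4 CPM for young PBS, 31.9 for old PBS and 15.4 for old rMETRNL, with a treatment ratio of 0.483 (0.362 to 0.645) against 0.825 in the other cells.

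The genes with the largest ratios were then named among those with at least 100 UMIs, at least 20 cells with a UMI and no cell holding over 10% of the UMIs, cell cycle lists, ribosomal and mitochondrial genes and unnamed gene models left out. The highest age ratios in cycling cells within these limits were of Tppp3, Tnxb, Ltbp4, Tmem267, Ntn1, Tnfaip6, Aqp1, Jup, Tmod2 and Cilp. Genes outside the limits had larger ratios, among them Slco2a1 (12.2 (8.16 to 18.9)), Myoc (5.48 (4.31 to 7.01)) and Prg4 (5.01 (4.42 to 5.69)), chosen here after their values were seen. Tnxb, tenascin X, was at 28.8 CPM for young PBS, 104 for old PBS and 107 for old rMETRNL (3.62 (2.997 to 4.39)), Cilp, a cartilage matrix protein gene, at 365 CPM for young PBS, 977 for old PBS and 358 for old rMETRNL (2.68 (2.53 to 2.83)), and Tnfaip6, which modifies hyaluronan in inflamed tissue, at 331 CPM for young PBS, 989 for old PBS and 545 for old rMETRNL (2.99 (2.82 to 3.17)). In the other cells of the gate these ratios were smaller, at 2.32, 1.91 and 1.7005. The fixed matrix glycoprotein and proteoglycan list had 6 of 38 genes at least 1.5-fold higher with age, against 5.16% of all genes, 1 lower, and a median log2 ratio of 0.06. The lowest age ratios were of Slc38a4, Slc16a3, Pdgfc, Fbn2, Sfrp2, Pfkl, Msmo1, Smarca1, Tagln and Bnip3. Sfrp2, a secreted Wnt modulator, was at 1071 CPM for young PBS, 311 for old PBS and 525 for old rMETRNL (0.291 (0.271 to 0.311)), from 6320, 946 and 3437 UMIs, with the old rMETRNL level between the others. Pdgfc, a ligand of PDGF receptor alpha, was at 14.9 CPM for young PBS, 3.95 for old PBS and 17.7 for old rMETRNL (0.265 (0.132 to 0.486)), in old PBS from 12 UMIs only.

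With treatment the highest ratios within the same limits were of Slc16a3, Ildr2, Pdgfc, Ak4, Dusp4, Pfkl, Wnt2, Bnip3, Ret and Msmo1. Ildr2 was at 5.42 CPM for young PBS, 4.94 for old PBS and 23.8 for old rMETRNL (4.82 (2.84 to 8.82), other cells 1.298), and Ret, a receptor tyrosine kinase, at 14.1 CPM for young PBS, 5.92 for old PBS and 19.7 for old rMETRNL (3.32 (2.02 to 5.78), other cells 1.02). Wnt2, a Wnt ligand, was at 3.73 CPM for young PBS, 5.27 for old PBS and 17.9 for old rMETRNL, higher in old rMETRNL than in both other libraries. Counts of these genes in old PBS were small, from 11 to 18 UMIs for Ildr2, Ak4, Dusp4, Wnt2, Ret and Msmo1. The lowest ratios within the limits, which leave out Myoc at 0.255 (0.207 to 0.314), were of Cpxm2, Adamts4, Fibin, Dio2, Epha4, Rab20, Cilp, Slc7a2, Id4 and Ecrg4. Adamts4, an aggrecanase, was at 95.1 CPM for young PBS, 189.6 for old PBS and 49.9 for old rMETRNL (0.263 (0.229 to 0.302), other cells 0.582), from 561, 576 and 327 UMIs. Its level in old PBS was above those of both other libraries.

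Between old rMETRNL and young PBS the highest ratios within the limits, which leave out Pi16 at 5.45 (4.14 to 7.29), were of Slco2a1, Wnt2, Gda, Ildr2, Aqp1, Prg4, Pcsk6, Tnxb, Galnt16 and Spon2. Slco2a1, a prostaglandin transporter gene, was at 4.74 CPM for young PBS, 57.9 for old PBS and 45.3 for old rMETRNL (9.55 (6.48 to 14.6)), and Prg4, lubricin, at 58.5 CPM for young PBS, 293 for old PBS and 224 for old rMETRNL (3.84 (3.41 to 4.33)). The lowest were of Tenm3, Ecrg4, Mest, Itm2a, H19, Tmem86a, Fbn2, Peg3, Pdgfrl and Mfap4. Of these, H19 was at 382 CPM for young PBS, 154 for old PBS and 130.03 for old rMETRNL (0.3405 (0.314 to 0.369), other cells 0.436), Mest at 299 CPM for young PBS, 214 for old PBS and 90.8 for old rMETRNL (0.304 (0.276 to 0.333), other cells 0.317) and Peg3 at 63.4 CPM for young PBS, 37.9 for old PBS and 23.96 for old rMETRNL (0.378 (0.312 to 0.457), other cells 0.425). All 3 were higher in the young library than in both old ones, in cycling and in other cells alike.

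Genes that mark FAP states were also counted by cell, after thinning to 10000 UMIs. Cells with at least 1 UMI of Pi16 or Dpp4 made up 8.51%, 11.2% and 21.9% of cycling cells and 19.4%, 33.997% and 30.2% of the others in young PBS, old PBS and old rMETRNL (12.8%, 26.2% and 31.9% and 29.5%, 42.2% and 39.3% before thinning). Cells with Inmt, Myoc or C7 made up 4.96%, 18.8% and 9.38% against 17.9%, 35.4% and 26.97% (12.1%, 28.8% and 13.5% and 25.9%, 48.1% and 37.1% before). Both kinds were rarer among cycling than among other cells in each library. Cells with Crabp1, Il11 or Inhba were more frequent among cycling cells, at 40.4%, 55% and 60.6% against 28.6%, 35.8% and 34.4% (60.3%, 71.2% and 72.4% and 40.7%, 44.6% and 42.02% before). Cxcl10 was detected in 56.7%, 62.5% and 50% of cycling cells and 54.1%, 57.3% and 50.4% of the others after thinning, with no common direction across libraries (77.3%, 72.5% and 66.9% and 61.9%, 61.2% and 57.9% before, higher among cycling cells in each), while its CPM was lower in the cycling cells of each. Free RNA can give single UMIs in cells that do not express a gene. Whether leukocytes transcribe Cxcl10 or Dpp4 themselves was not tested, so their shares are not read as free RNA alone. In Cdh15-gated muscle stem cells and myoblasts, with median counts of 33798, 29422.5 and 31808 UMIs before thinning, the thinned shares were 0.612%, 0.775% and 1.76% for Pi16 or Dpp4, 1.22%, 2.33% and 2.46% for Inmt, Myoc or C7, 3.06%, 5.43% and 4.58% for Crabp1, Il11 or Inhba and 18.04%, 13.2% and 10.6% for Cxcl10. In Ptprc-gated leukocytes, with medians of 14131, 14954 and 14450 UMIs, they were 8.53%, 6.01% and 7.21%, 0.403%, 1.27% and 1.08%, 2.62%, 5.54% and 3.49% and 36.8%, 25.9% and 31.7% in that order of genes. The Inmt, Myoc or C7 share of cycling FAPs in young PBS (2.02% to 9.96%) overlapped that of Cdh15-gated cells (0.334% to 3.102%) and cannot be told from that background. The Pi16 or Dpp4 intervals of cycling FAPs lay above those of Cdh15-gated cells in each library and overlapped those of leukocytes in young PBS and old PBS, where the leukocytes were themselves above the Cdh15-gated cells. In the other cases the exact 95% intervals of cycling FAPs lay above those of both gates.

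Within the cycling cells, levels were also compared by position in the cycle. Summed matrix levels of cells with under 50%, from 50% to 80% and at least 80% G2 and M UMIs were 65462, 60155 and 68489 CPM in young PBS, 61236, 77223 and 72671 in old PBS and 57611, 53304 and 62375 in old rMETRNL. All of them lay below the levels of the other cells of the gate, which were 85481, 90265 and 85337. Glycolysis medians per cell in the same 3 classes were 4362, 4289 and 3801 CPM in young PBS, 4173, 3017 and 3225 in old PBS and 5069, 4489.7 and 3660.4 in old rMETRNL. They were highest in the S phase class of each library. In each of the 3 classes the old PBS value was the lowest of the 3 libraries.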

How the data were processed

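Single-cell suspensions of injured muscle were sequenced on a droplet platform, with 1 library per group. The authors deposited filtered matrices that hold, for each gene in each cell, a raw count of UMIs. The file headers name Cell Ranger 5.0.0 (the submitters' processing notes list 5.0.0 and 3.1.0, with the build mm10, and the study's methods name another version). The annotation release is not given in the sources used here. Of 32285 feature IDs, 32158 (99.6%) matched the GENCODE annotation of GRCm38, from which gene identifiers and positions were taken, and the 78 features with a repeated symbol were summed by symbol. The files held 12168, 12568 and 14012 barcodes with 218059089, 179295668 and 228966697 UMIs.

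Cells were filtered, gated and called cycling as stated at the opening. No cell was removed as a doublet in the main results, and Scrublet (scanpy 1.11.5) was run per library for the alternatives. UMIs were summed per library over cycling and over other gated cells and tested with edgeR 4.0.16 in R 4.3.3 (quasi-likelihood test, TMM scaling, low genes filtered by filterByExpr, library as a term, genes of the rule left out, calls at an adjusted p under 0.05). On data simulated for this comparison (12787 genes) the test recovered 94 of 100 genes changed 2-fold and 78 of 100 changed 1.5-fold, with 2 false calls. The simulation gave every gene the same dispersion (0.0055) and changed only these genes, as many up as down. It thus cannot give the rate of false calls where as many genes differ as here. Between libraries, ratios of CPM had exact intervals conditional on the sum of both counts, and list medians had 0.5 added to each count. The named genes are the 12 highest and 12 lowest of the calls, with at least 200 UMIs and the same sign in 3 of 3 libraries, and for each pair of libraries the 10 highest and 10 lowest ratios with at least 100 UMIs, 20 cells with a UMI and no cell with over 10% of them, besides members of fixed lists with the most UMIs or the largest change. The members and the 22 gene lists were chosen with earlier results of these data known. Alternatives were the cycling threshold, thinning, other gene sets, DESeq2 1.42.0, library totals, no library term, gene filters, and leaving out each library. Removal of high doublet scores, a threshold over 15 mitotic genes and leaving out muscle fibre and erythroid markers were added after seeing the data. Promoters were taken from RefSeq.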

Additional observations from a re-analysis of the deposited data

How the results depend on the processing

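No paired analysis was possible because each group has 1 library and the labels give no number that ties samples of different groups. Where cycling cells were called by at least 10 UMIs over the whole G2 and M phase list, 84.2%, 68.5% and 75.3% of the gate passed. The ratio of shares then moved to 1.10 (0.986 to 1.23) for old rMETRNL over old PBS, an interval that included 1. For old rMETRNL over young PBS the ratio turned its direction, to 0.895 (0.811 to 0.987). The share ratios with age and with treatment kept their direction under every alternative run. For cycling against other cells, thinning to 10000 UMIs gave 1964 genes higher and 1998 lower, DESeq2 gave 2212 higher and 1953 lower, no library term 2359 and 2092, and leaving out each library in turn gave 2283 to 2951 higher and 2205 to 2911 lower. Between libraries the counts of genes past 1.5-fold moved with the minimum of UMIs. A minimum of 50 gave 503 lower with age, 490 higher and 521 lower with treatment and 517 lower for old rMETRNL over young PBS. A minimum of 300 gave 183 higher and 88 lower with age, 101 and 128 with treatment and 158 and 96 for old rMETRNL over young PBS. The G2 and M percent moved to 73.0% for young PBS, 74.0% for old PBS and 71.7% for old rMETRNL with high doublet scores removed, to 72.9%, 74.9% and 71.6% at a threshold of 3 UMIs, and to 74.6% for young PBS and 73.6% for old rMETRNL at 10 UMIs. The cause of these shifts was not tested beyond the cells or genes each alternative leaves out. The median of p53 targets with treatment was -0.094 at a minimum of 50 UMIs and 0.16 otherwise, and that of the interferon and chemokine group for old rMETRNL over young PBS was 0.015 as a mean over cells and -0.13 otherwise. Without the library term the calls of Cdkn1a, Nop58, Col1a1, Dpp4, Inhba, Dio2, Metrnl, Pfkl, Col6a1, Vcam1, Bmp4 and Il33 were lost. The main limits are 1 pooled library per group, 80 cycling cells in old PBS, and a threshold on raw UMIs that deeper cells pass more easily.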
